A study of Mus musculus with 9 samples.

Results

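Huntingtin (Htt), 5 genes whose proteins bind or modify it (Hap1, Hip1, Hip1r, Rasd2, Zdhhc17) and 3 genes of the Bdnf axis (Rest, Bdnf, Ntrk2) were followed across the 9 libraries of a study of N171-82Q Huntington disease mice. These 9 genes were chosen by name out of the 21853 protein-coding genes in the deposited tables, and all 9 passed the filter on low values that left 15411 genes for testing. The study had 3 groups of 3 libraries each. HD-WNT5B libraries came from N171-82Q mice given pAAV-GFAP(pro)-WNT5B-P2A-mCherry, an adeno-associated virus that puts WNT5B and the red fluorescent protein mCherry behind the astrocyte promoter GFAP. HD-Control libraries came from N171-82Q mice given pAAV-GFAP(pro)-Control-mCherry, the matching virus with no WNT5B, and WT-Control libraries from wild-type mice given that same control virus. Every group therefore carried a GFAP-promoter virus with mCherry, and no group was without injection. The virus was aimed at the striatum, the tissue label says only brain, and sex, age and the number of animals behind a library are not stated for any library. The p-values below therefore measure the spread between these libraries, which may be technical.

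Huntingtin is a large scaffold protein whose glutamine tract is expanded in Huntington disease. N171-82Q mice carry a truncated N-terminal piece of human huntingtin with an expanded tract, driven by the mouse prion protein promoter mainly in neurons, beside the intact mouse Htt gene. With its partner Hap1 and the motors kinesin and dynein, huntingtin moves vesicles that hold brain-derived neurotrophic factor (BDNF) along axons. Much of the BDNF of the striatum is made in cortical neurons, released from their axons and bound by the receptor TrkB, the product of Ntrk2. Huntingtin is also known to hold the repressor REST in the cytoplasm, and REST in the nucleus silences neuronal genes, Bdnf among them.

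The start of the mouse Htt coding sequence is shown because the Htt values are those of the mouse gene entry, which need not hold the human transgene. It lies in exon 1 of transcript Htt-201 on the plus strand at chr5:34761907-34762056 (mm10), and capitals mark the run of 7 CAG or CAA codons, codons 18 to 24, that is the mouse counterpart of the tract expanded in patients.
Htt: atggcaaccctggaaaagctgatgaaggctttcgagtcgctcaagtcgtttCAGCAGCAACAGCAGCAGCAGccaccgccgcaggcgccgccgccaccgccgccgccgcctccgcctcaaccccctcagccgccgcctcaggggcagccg
The run held 6 CAG codons and 1 CAA codon. How many transgene reads aligned to mouse Htt was not tested.

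Of the Bdnf promoters, the window with a cAMP response element is shown, since this element is a known binding place of CREB in neurons and Bdnf gave the largest difference among the 9 genes between HD-Control and WT-Control. The window spans 250 bases before to 50 bases after a Bdnf start in RefSeq (GRCm38.p6, the same assembly as mm10), at chr2:109692186-109692485 on the plus strand, and capitals mark the element TCACGTCA, whose first base lies 38 bases before the start.
Bdnf: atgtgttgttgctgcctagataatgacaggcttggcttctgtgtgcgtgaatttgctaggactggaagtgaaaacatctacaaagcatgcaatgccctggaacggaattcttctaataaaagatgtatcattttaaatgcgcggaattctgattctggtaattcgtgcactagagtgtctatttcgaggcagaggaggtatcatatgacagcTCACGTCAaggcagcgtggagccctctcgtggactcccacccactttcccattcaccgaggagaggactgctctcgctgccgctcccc
On either strand TCACGTCA was present in 145 of 32851 such windows of all genes (0.441%), and in 1 of the 17 windows found for 8 of the 9 genes. The consensus element TGACGTCA, of the same length, was in 1.79% of all windows and in that of Htt. The shorter TGACG, which on 1 strand lies within both elements, was in 20.8% of all windows and in 4 of the 17. The E-box CACGTG was in 7.15% of all windows and in none of the 17. The left part of the REST site, TTCAGCACC, was in 0.371% of all windows and in none of the 17, and the right part, GGACAGCG, was in 1.26% and in 1 window of Hip1. A match describes these letters in this window only, and the read tables do not say which Bdnf start was used.

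Values are normalized reads, that is estimated reads of a gene after the authors' division by 1 factor per library. They are not divided by gene length. Differences are of mean log2(value + 3), the first group named minus the second, and a gene is called higher or lower where the adjusted p is under 0.05. The libraries were not alike between groups. HD-WNT5B libraries held 37.3 to 52.1 M estimated reads, HD-Control 69.8 to 90.6 M and WT-Control 67.8 to 77.8 M. In HD-WNT5B libraries 194 to 324 genes had between 1 and 10 reads, against 1844 to 1952 in HD-Control and 1778 to 1831 in WT-Control. The median SD of log2 values between replicates, over 13081 genes with a mean of at least 100, was 0.233 in HD-WNT5B, 0.0333 in HD-Control and 0.0393 in WT-Control. When all genes were put into 5 equal bins by transcript length, the median log2 difference of HD-WNT5B minus HD-Control was 1.06 in bin 1, the shortest, and -1.02 in bin 5, the longest, while the same medians for HD-Control minus WT-Control were 0.07 and -0.01. Htt, Hip1, Hip1r, Zdhhc17, Rest and Ntrk2 are in bin 5, Bdnf in bin 4, Hap1 in bin 3 and Rasd2 in bin 2. The part of length in their differences was not tested beyond a fit with a smooth trend on length and GC content removed from each library. That fit removed both together, so a change under it cannot be assigned to length or to GC content alone. The values of that fit are given beside the members and pathway lists in the HD-WNT5B comparisons, and beside Htt in HD-Control minus WT-Control, where it changed the call of Htt alone among the 9. Scaling all libraries to equal totals shifted the median of all genes from -0.23 to -0.76 for HD-WNT5B minus HD-Control, and lowered the share of higher genes among those called from 46.2% to 32.2%.

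No value in the tables measures the viral cargo or the transgene directly, and whether transgene reads entered the Prnp values below was not tested. Mouse Wnt5b stood at 184, 22.5 and 212 normalized reads in HD-WNT5B, against 63.8, 44.2 and 49.3 in HD-Control and 74.6, 63.8 and 57.7 in WT-Control. HD-WNT5B replicate 2 was below every control library and the other two were above them, and no comparison of Wnt5b passed the test; the labels do not give the species of the WNT5B sequence. Prnp, the gene whose promoter drives the transgene, stood at 26064, 24797 and 27704 in HD-WNT5B, at 52179.7, 51700.3 and 52223 in HD-Control and at 32468, 32096 and 31522 in WT-Control. It was higher in HD-Control than in WT-Control (log2 difference 0.70, adjusted p = 4.02e-06). In HD-WNT5B minus WT-Control it was -0.29 (adjusted p = 0.000145), near the median of -0.245 for all genes tested. In HD-WNT5B minus HD-Control it was -0.99 (adjusted p = 4.3e-08), against a median of -0.23 for all genes tested. The longest Prnp transcript, of 2184 bases, is in length bin 2. The median of that bin was 0.105 in HD-WNT5B minus HD-Control and 0.112 in HD-WNT5B minus WT-Control. On the deposited scale Prnp was thus above wild type in HD-Control only. The part of the shift of all genes in the HD-WNT5B values of Prnp was not tested.

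HD-Control against WT-Control asked how these genes stand in the disease model with the control virus. Bdnf was 5.06-fold lower, Hip1 and Rasd2 were lower by small amounts, and Ntrk2 was slightly higher. All 9 genes had 3 HD-Control libraries on 1 side of the 3 WT-Control libraries, 4 above and 5 below. Such a separation was seen in 84.0% of all genes tested, 43.6% above and 40.4% below. With the spread shared over all 9 libraries, limma with Benjamini-Hochberg adjustment called 4 of the 9 genes at an adjusted p under 0.05 (1 higher, 3 lower), against 45.1% of all genes tested. Without the scatter of the HD-WNT5B libraries, by weighting each group by its own scatter (a weight per group) or by fitting only the 6 libraries compared, all 9 were called (4 higher, 5 lower), against 82.9% of all genes with the weights (43.1% higher, 39.9% lower). The count of called members was thus near the background under either fit. In size, 0.72% of all genes tested had a lower log2 difference than Bdnf, while the other 8 members lay between -0.31 and 0.44.

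**Figure D1:**
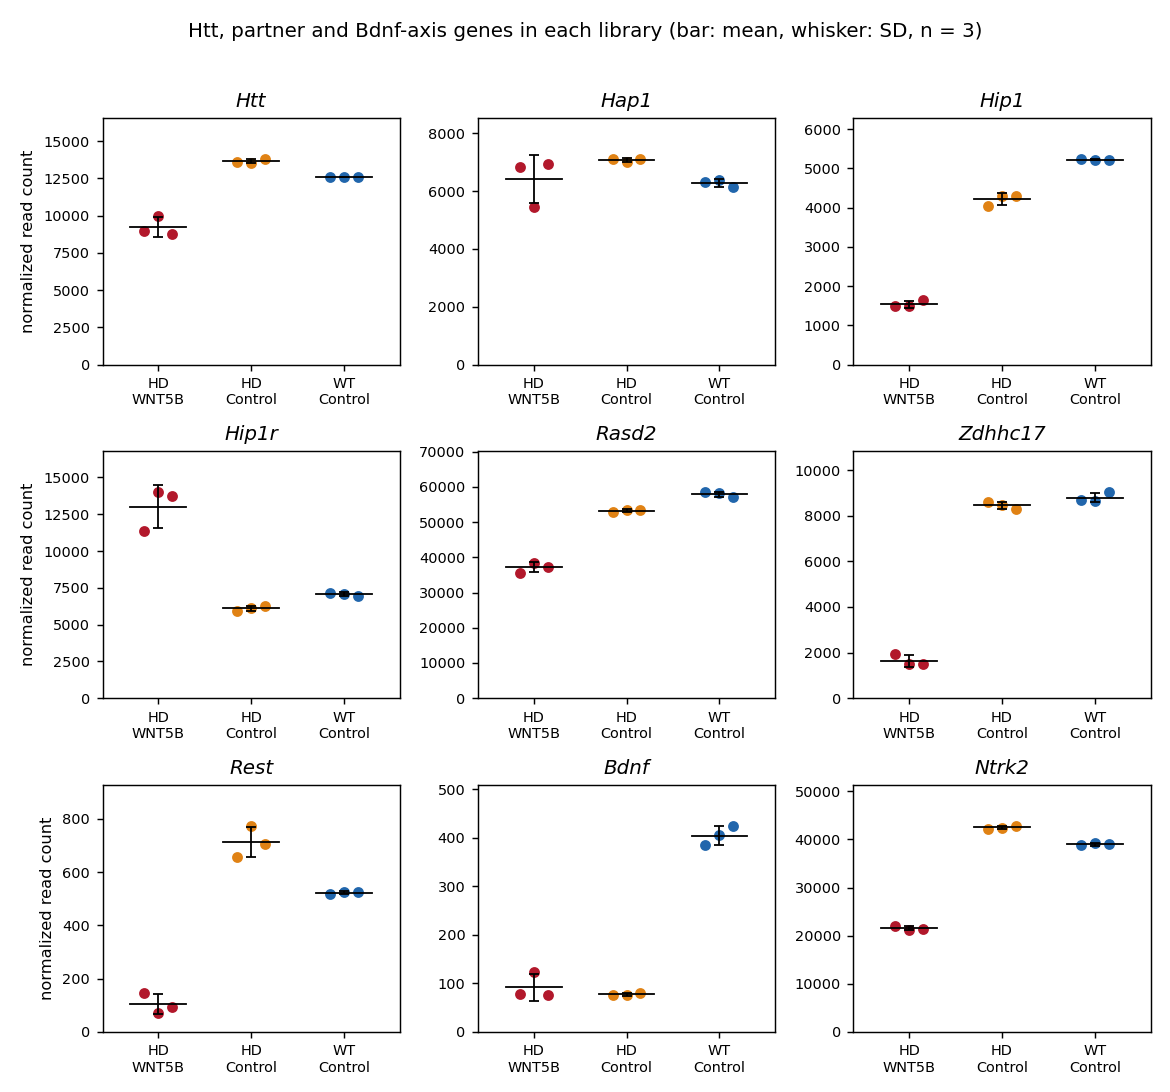
Normalized read count (vertical axis, from 0, in values deposited by the authors) of each of the 9 genes in each library, grouped as HD-WNT5B, HD-Control and WT-Control, with the mean as a bar and the SD as a whisker (n = 3). Bdnf lies at 75.2 to 80.6 in HD-Control and 384 to 424 in WT-Control, while Zdhhc17 and Rest are lowest in HD-WNT5B.

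Bdnf (chr2:109674700-109727007, plus strand, mm10 as for the other genes), the neurotrophin itself, had 76.5, 75.2 and 80.6 normalized reads in HD-Control, against 384, 405 and 424 in WT-Control. The 2 groups were far apart and the HD-Control libraries lay within a few normalized reads of each other. The log2 difference was -2.34 (SE 0.23, 95% interval -2.87 to -1.80, adjusted p = 8.2e-05), and it rested on 96 to 131 estimated reads a library in HD-Control and 501 to 581 in WT-Control. Bdnf shares 14.4% of its exon bases with the antisense gene Gm45346 on the other strand, and the library kit does not keep strand, so reads there cannot be told apart.

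Beside Bdnf, markers of the neurons that make it were lower too. Of 10 cortical excitatory neuron markers 8 were lower in HD-Control and none higher, with a median log2 difference of -1.16 against 0.02 for all genes, and their summed value was 11634 to 11758 in HD-Control against 25692 to 26469 in WT-Control. Of 14 striatal projection neuron markers 10 were lower and 4 higher (median -0.51), with sums of 605491 to 611460 in HD-Control and 727256 to 733185 in WT-Control, and no marker of this list was at 0 in any library. Of 10 microglia markers all 10 were lower (median -1.91), with sums of 13564 to 13661 in HD-Control and 31494 to 31793 in WT-Control. Oligodendrocyte markers were lower for 9 of 10 (median -0.99), their precursors for 7 of 8, endothelial and mural markers for 6 of 10 and astrocyte markers for 6 of 10, where 2 were higher. Of 9 thalamic and hypothalamic neuron markers tested 3 were lower and 1 higher, and of 8 choroid plexus and ependyma markers none was called. In bulk tissue fewer cells of a type and less RNA per cell cannot be told apart, and the part of these markers in the Bdnf difference was not tested.

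Rest (chr5:77265491-77286432, plus strand), the repressor, had 658, 773 and 707 normalized reads in HD-Control, against 516, 526 and 525 in WT-Control. Each HD-Control library was above each WT-Control library. The log2 difference was 0.44 (SE 0.24, interval -0.10 to 0.99) with an adjusted p of 0.17 in the fit over 9 libraries and 3.1e-05 with a weight per group, so the call depends on whether the scatter of HD-WNT5B enters. Divided by transcript length, Rest stood at 5.23 to 6.26 times Bdnf in HD-Control and at 0.754 to 0.818 times Bdnf in WT-Control, so Rest was above Bdnf in every HD-Control library and below it in every WT-Control library. This ratio carries the Bdnf difference and is no separate result.

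Ntrk2 (chr13:58806569-59133970, plus strand), the TrkB receptor, had 42271, 42481 and 42803.5 normalized reads in HD-Control, against 38759, 39251 and 38959.6 in WT-Control. The groups did not overlap, and the difference of 0.13 on the log2 scale (SE 0.03, adjusted p = 0.0034) was 1.09-fold. With upper-quartile scaling it was 0.06 with an adjusted p of 0.0843. Ligand and receptor thus differed by unlike amounts: Bdnf per length was 0.00363 to 0.00386 of Ntrk2 in HD-Control and 0.0203 to 0.0223 in WT-Control. This ratio, too, carries the Bdnf difference and is no separate result. The values are per gene, so the transcripts of Ntrk2 are not told apart.

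Htt itself (chr5:34761740-34912534, plus strand) had 13617, 13564 and 13819 normalized reads in HD-Control, against 12608, 12622 and 12597 in WT-Control. All 3 HD-Control libraries were higher, by 1.08-fold. The log2 difference of 0.12 (SE 0.05, interval 0.01 to 0.23) had an adjusted p of 0.078 over all 9 libraries and 1.7e-06 with a weight per group, and it was 0.19 (adjusted p = 0.0143) with the length and GC trend removed. Hap1 (chr11:100347327-100356128, minus strand), which links huntingtin to the motors, had 7107, 7009.5 and 7118 in HD-Control, against 6329, 6377 and 6130.1 in WT-Control. These groups were also separate, and the log2 difference of 0.17 (interval -0.02 to 0.36) had an adjusted p of 0.13, or 3.5e-07 with a weight per group.

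Hip1 (chr5:135406531-135545120, minus strand), an endocytic adaptor that binds clathrin and huntingtin, had 4055, 4309 and 4300.2 normalized reads in HD-Control, against 5245, 5222 and 5215 in WT-Control. It fell by 0.31 on the log2 scale (SE 0.05, adjusted p = 0.0016). Its paralog Hip1r (chr5:123973628-124005558, plus strand) had 5922, 6112 and 6289 in HD-Control, against 7174, 7078 and 6920.4 in WT-Control. The direction was the same, with a log2 difference of -0.21 (SE 0.08) and an adjusted p of 0.0501 that stands at the threshold and passed under several alternatives, 1.3e-07 with a weight per group among them. Hip1r shares 12.5% of its exon bases with other genes, the protein-coding gene Vps37b on the other strand among them.

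Rasd2 (chr8:75213944-75224113, plus strand), also called Rhes, a small GTP-binding protein enriched in the striatum that attaches SUMO to mutant huntingtin, had 52939, 53489 and 53470.1 normalized reads in HD-Control, against 58451, 58312 and 57125 in WT-Control. It fell by 0.12 on the log2 scale (SE 0.03, adjusted p = 0.014), a 1.09-fold difference, beside the lower sum of striatal markers given above. The adjusted p was 0.0578, 0.0561 and 0.0567 without WT-Control replicate 1, WT-Control replicate 2 and HD-Control replicate 1. Zdhhc17 (chr10:110941780-111010140, minus strand), the palmitoyl transferase HIP14 that attaches palmitate to huntingtin, had 8601, 8454 and 8297 in HD-Control, against 8687, 8646 and 9019 in WT-Control. The groups were next to each other with a gap of less than the spread within either, and the log2 difference of -0.06 (interval -0.27 to 0.16) had an adjusted p of 0.67, or 0.0336 with a weight per group.

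Per length, the order of levels was nearly shared by HD-Control and WT-Control libraries. Values per kilobase of the longest annotated transcript were highest for Rasd2 (18968 ± 111 in HD-Control, 20627 ± 259 in WT-Control, SD, n = 3 each), followed by Ntrk2, Hap1 and Zdhhc17 in both groups. Htt then ranked above Hip1r in HD-Control (1034 ± 10.2 against 907 ± 27.3) and below it in WT-Control (954 ± 0.923 against 1048 ± 19.0). Hip1 was seventh in both, and Rest ranked above Bdnf in HD-Control (102 ± 8.24 against 18.2 ± 0.665) and below it in WT-Control (74.5 ± 0.774 against 94.8 ± 4.66). In both groups every gene's 3 libraries were all above those of the next gene in this order.

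Gene lists around the members placed these values among their pathways for HD-Control minus WT-Control, where 24.5% of all genes tested were called higher and 20.7% lower. The sizes given for their genes are log2 differences. Of 28 genes known as REST targets, 27 were tested, 4 were higher and 17 lower, with a median log2 difference of -0.31 against 0.02 for all genes, and the median stayed between -0.37 and -0.31 under every scaling tried. Nefm, a neurofilament subunit, was lower by a log2 difference of -1.40 (6286 ± 218 in HD-Control, 16597 ± 444 in WT-Control, SD, n = 3 each), Unc13a, which primes synaptic vesicles, at -0.91 and the synaptic vesicle protein Syn1 at -0.75, while the sodium channel subunit Scn3b was higher by 0.50. Bdnf is 1 of the 17. Pan-neuronal markers, 4 of which are also on this list, moved with it: 8 of 10 were lower and none higher, and their sum was 306614 to 307034 in HD-Control against 367168 to 368824 in WT-Control.

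**Figure D2:**
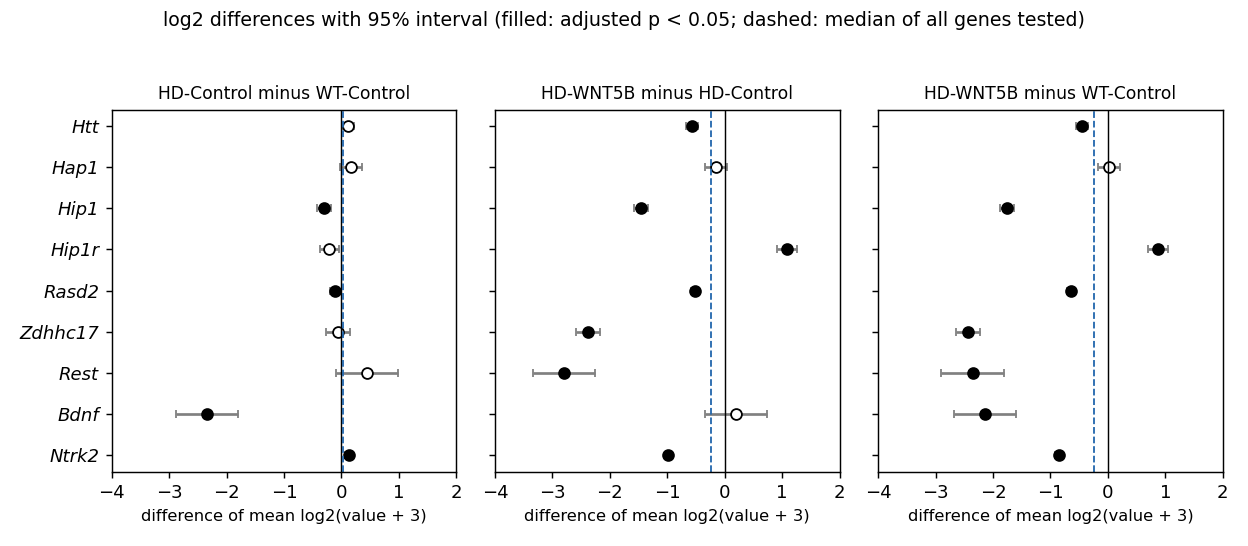
Differences of mean log2(value + 3) for the 9 genes in the 3 comparisons, with 95% intervals from limma; filled points have an adjusted p under 0.05, the solid line is 0 and the dashed line is the median of all genes tested. Bdnf stands at -2.34 in HD-Control minus WT-Control and its interval spans 0 in HD-WNT5B minus HD-Control.

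Among 14 neurotrophin ligands and the enzymes that process them, 12 were tested, 6 were higher and 2 lower in HD-Control than in WT-Control (median 0.30), Bdnf being 1 of the 2. The neurotrophins Ntf3 and Ntf5 were too low to test. Mmp9, a secreted protease that can cleave proBDNF, had 205, 204 and 196 normalized reads in HD-Control, against 38, 26.7 and 27.7 in WT-Control. That was a log2 difference of 2.62 (adjusted p = 3.4e-05). The proprotein convertase Pcsk7 was higher by 1.16, tissue plasminogen activator Plat, which starts the extracellular cleavage of proBDNF, by 0.99, and carboxypeptidase E (Cpe), which sorts proBDNF into the regulated pathway, by 0.30.

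Of 12 receptors and co-receptors, 2 were higher and 5 lower (median -0.12). Adora2a, the adenosine receptor that transactivates TrkB and marks indirect-pathway striatal neurons, was lower by a log2 difference of -0.83, the sorting receptor Sorl1 at -0.67 and Sorcs2, a co-receptor of proBDNF, at -0.34. Kidins220, a scaffold of Trk receptors, was higher by 0.21. Of 34 genes of TrkB signalling 13 were higher and 10 lower (median 0.08). Among them Rasgrf1, an exchange factor of Ras, was higher by 0.63, the phosphatase gene Ptpn11 by 0.57 and the kinase gene Braf by 0.76, while Dok5, an adaptor that binds Trk receptors, was lower, at -1.15.

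Around huntingtin and Rest the lists were mixed. Of 30 huntingtin interactors, the members included, 10 were higher and 6 lower (median 0.12), and with upper-quartile scaling 6 were higher and 7 lower. Git1, a scaffold that binds huntingtin, was higher by 0.41, the co-repressor Ctbp1 by 0.37, and the kinase gene Mapk10 was lower, at -0.51. Of 16 genes for transport of BDNF vesicles 6 were higher and 4 lower (median 0.08): Dctn1, the dynactin subunit that joins huntingtin and Hap1 to dynein, was higher by 0.50 and the kinesin light chain Klc1 by 0.36, while the kinesin heavy chain Kif5c was lower, at -0.33. Of 19 genes of the REST complex 7 were higher and 4 lower (median 0.03, or -0.03 with upper-quartile scaling), with the histone methyltransferase gene Ehmt2 higher by 0.51, and Smarca4, an ATPase of chromatin remodelling, and Prickle1, whose protein binds REST, both lower at -0.64.

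Of 20 regulators of Bdnf transcription, 7 were higher and 5 lower (median 0.19). Npas4, an activity-induced factor that binds Bdnf promoters, had 408, 448 and 405 normalized reads in HD-Control, against 1032, 1089 and 932 in WT-Control. That was a log2 difference of -1.27 (adjusted p = 3.4e-05). The kinase gene Camk2a was lower, at -0.43, while Mef2a was higher by 0.62 and Usf1, which binds E-boxes, by 0.40. Of 13 genes known as modifiers of CAG-repeat length or of the age at onset, 4 were higher and 1 lower (median 0.29). The mismatch repair genes Pms2 and Msh3 were higher by 0.81 and 0.71, Ccdc82 by 0.61 and Med15 by 0.58. Without HD-WNT5B replicate 1 or replicate 2, 8 of these 13 were called in place of 5.

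HD-WNT5B against HD-Control set N171-82Q mice with the WNT5B virus beside those with the control virus. Every HD-WNT5B library, and no other, also differed in depth, low-read genes, scatter and length trend, as given above. In both comparisons with HD-WNT5B, an effect of the virus cannot be told apart from these library differences. Zdhhc17 and Rest were lower by more than 2 log2 units, Hip1, Ntrk2, Htt and Rasd2 were lower by smaller amounts, and Hip1r was higher. Bdnf and Hap1 did not pass the test. limma with Benjamini-Hochberg adjustment called 7 of the 9 genes (1 higher, 6 lower), against 77.5% of all genes tested (35.8% higher, 41.7% lower), and the same 7 were called with a weight per group, against 70.1% of all genes. The count is near the background, and the comparison shares its HD-Control libraries with the first one.

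Rest had 145, 72.3 and 94.4 normalized reads in HD-WNT5B, against the 658 to 773 of HD-Control given above. The HD-WNT5B values rested on 44 to 81 estimated reads a library and were far below both other groups. The log2 difference was -2.80 (SE 0.24, interval -3.34 to -2.25, adjusted p = 5.9e-06), or -1.97 with the length and GC trend removed. Of all genes tested, 6.93% had a lower log2 difference.

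Bdnf had 76.9, 124 and 75.1 normalized reads in HD-WNT5B, against 76.5, 75.2 and 80.6 in HD-Control. The groups overlapped, and HD-WNT5B replicate 2 alone was above the HD-Control libraries by more than a few normalized reads. The log2 difference was 0.20 (SE 0.23, interval -0.33 to 0.74, adjusted p = 0.45), a range that holds no change as well as a rise of more than 1.5-fold. The HD-WNT5B values rested on 35 to 77 estimated reads. Without replicate 2 the difference was -0.03, with equal totals it was -0.33 (adjusted p = 0.197), and with the length and GC trend removed it was 0.94 (adjusted p = 0.0043), so the direction and the call depend on the scale and on 1 library.

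Ntrk2 had 21981, 21244 and 21354 normalized reads in HD-WNT5B, against 42271 to 42803.5 in HD-Control. The HD-WNT5B libraries were close together and far below HD-Control. It fell by 0.98 on the log2 scale (SE 0.03, adjusted p = 2.3e-09), by 1.54 with equal totals and by 0.16 with the length and GC trend removed (adjusted p = 0.0028).

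Htt had 8986, 9984 and 8751 normalized reads in HD-WNT5B, against 13564 to 13819 in HD-Control. Every HD-WNT5B library was lower, and the difference was -0.57 (SE 0.05, adjusted p = 5.4e-06), or -1.12 with equal totals. With the length and GC trend removed it was 0.08 (adjusted p = 0.177), so neither the call nor the direction held for this gene, the one with the longest transcript of the 9. Hap1 had 6849, 5468 and 6926 in HD-WNT5B, against 7009.5 to 7118 in HD-Control. HD-WNT5B replicate 2 was the lowest, and the other two were close below HD-Control. The difference was -0.15 (interval -0.34 to 0.04, adjusted p = 0.13), and -0.71 (adjusted p = 0.00011) with equal totals, -0.52 (adjusted p = 0.0004) with the length and GC trend removed and -0.21 (adjusted p = 0.0492) without HD-WNT5B replicate 3.

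The paralogs Hip1 and Hip1r went opposite ways. Hip1 had 1486, 1487 and 1645 normalized reads in HD-WNT5B, against 4055 to 4309 in HD-Control. It fell by 1.45 on the log2 scale (SE 0.05, adjusted p = 2.2e-08), or by 0.92 with the length and GC trend removed. Hip1r, whose protein links clathrin coats to actin, had 11347, 13984 and 13713 in HD-WNT5B, against 5922 to 6289 in HD-Control. It was 2.12-fold higher (log2 1.08, SE 0.08, adjusted p = 1.4e-06). It was higher by 0.53 with equal totals and by 1.27 with the length and GC trend removed. Per length, Hip1r stood at 8.88 to 10.9 times Hip1 in HD-WNT5B and at 1.65 to 1.7 times Hip1 in HD-Control.

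Zdhhc17 had 1926, 1499 and 1486 normalized reads in HD-WNT5B, against 8297 to 8601 in HD-Control. The group means differed 5.19-fold on this scale, with a log2 difference of -2.38 (SE 0.09, adjusted p = 3.4e-08), or -1.51 with the length and GC trend removed. Rasd2 had 35655, 38445.5 and 37353 in HD-WNT5B, against 52939 to 53489 in HD-Control. It fell by 0.52 on the log2 scale (SE 0.03, adjusted p = 6.4e-07), by 1.08 with equal totals and by 0.86 with the length and GC trend removed. Its transcripts are in length bin 2, whose median difference was 0.11.

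**Figure D3:**
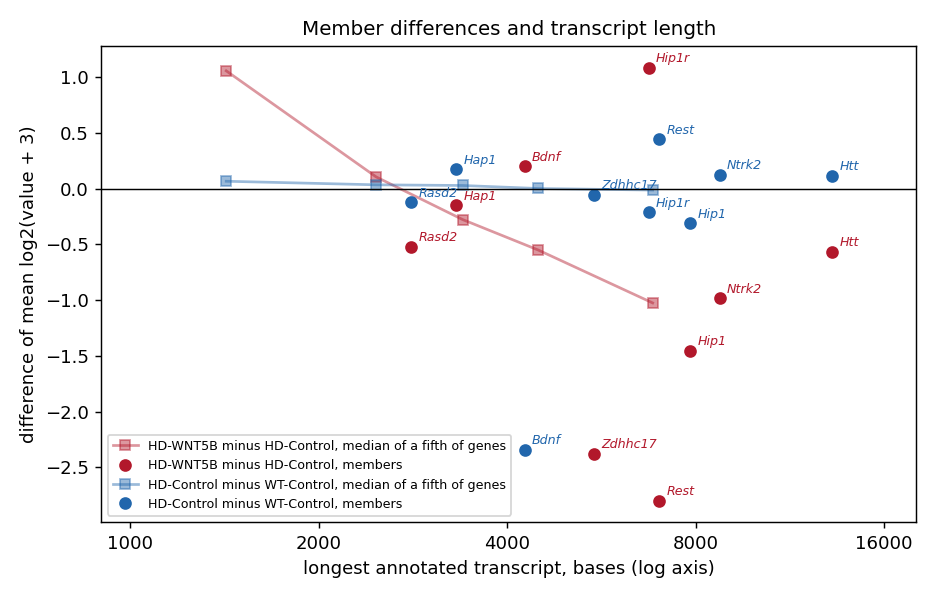
Differences of mean log2(value + 3) of the 9 genes (circles) against the length of the longest annotated transcript in bases (log axis), with the median of all genes in each of the 5 length bins (squares), for HD-WNT5B minus HD-Control and HD-Control minus WT-Control. The medians run from 1.06 to -1.02 in HD-WNT5B minus HD-Control, and there Hip1r, Htt, Bdnf, Hap1 and Ntrk2 lie above the median of their own bin, Ntrk2 by little, while Hip1, Rasd2, Zdhhc17 and Rest lie below it.

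The pathway lists in HD-WNT5B minus HD-Control had called members in both directions, with the receptors as the exception. Of 12 neurotrophin receptors and co-receptors none was higher and 10 were lower (median -1.27 against -0.23 for all genes), or 1 higher and 10 lower (median -0.84) with the length and GC trend removed. Sort1, the sortilin that sorts proBDNF, was lower, at -1.41, Ntrk3 at -1.36 and Sorcs2 at -1.11, while Adora2a differed by 0.02 (adjusted p = 0.785). Of the ligands and processing enzymes 1 was higher and 7 lower (median -1.05), or 2 higher and 7 lower (median -1.06) with that trend removed. Plat had 327, 279 and 189 normalized reads in HD-WNT5B, against 2862, 2724 and 2775 in HD-Control. That was a log2 difference of -3.42 (adjusted p = 2.3e-07). Cpe was higher by 1.10, and Mmp9 differed by -0.29 (adjusted p = 0.258).

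**Figure D4:**
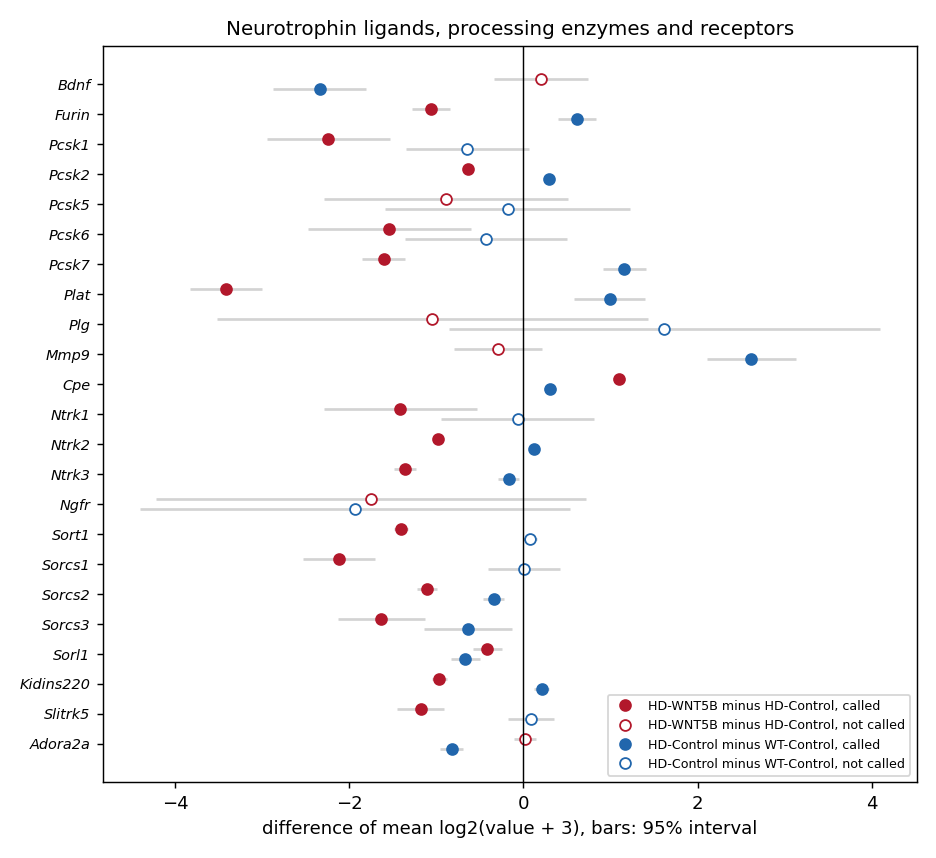
Differences of mean log2(value + 3) with 95% intervals for tested neurotrophin ligands, processing enzymes, receptors and co-receptors, in HD-WNT5B minus HD-Control (upper point of each pair) and HD-Control minus WT-Control (lower point), which share the HD-Control libraries. Mmp9 stands at 2.62 and Plat at 0.99 in HD-Control minus WT-Control, and Plat at -3.42 in HD-WNT5B minus HD-Control.

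Of the 34 TrkB signalling genes 11 were higher and 22 lower (median -1.11), or 14 higher and 18 lower (median -0.51) with the length and GC trend removed. Ptpn11 was lower, at -1.74, Rasgrf1 at -1.7 and Braf at -2.03, while Map2k2, a kinase downstream of Raf proteins, was higher by 3.18 (22960.2 in HD-WNT5B and 2525 in HD-Control, means of 3 libraries). Of the interactors 10 were higher and 18 lower (median -0.54), or 13 and 16 with the trend removed (median -0.37), with Dnm1, the GTPase that pinches off endocytic vesicles, higher by 1.60, Git1 higher by 1.02 and Pacsin1, which binds dynamin and huntingtin, lower, at -1.52. Of the transport genes 6 were higher and 9 lower (median -0.41, or -0.34 with the trend removed), with Dctn1 lower, at -1.41 and Pafah1b1, a regulator of dynein, at -2.19.

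Of the REST complex 7 were higher and 11 lower (median -0.40), or 10 higher and 8 lower (median 0.34) with the length and GC trend removed. The corepressors of REST split, with Rcor1 lower, at -2.62 and Rcor2 higher by 2.09. Of the 27 REST targets 13 were higher and 11 lower (median 0.20, or -0.33 with equal totals and 0.19 with the trend removed). Cplx2, a regulator of vesicle fusion, was higher by 2.55, Syn1 by 1.48 and Nefm by 1.10, while Tubb3, a neuronal tubulin, was lower, at -2.50 and the chloride transporter gene Slc12a5 at -1.47. Of the Bdnf regulators 8 were higher and 11 lower (median -0.66), or 9 and 9 with the trend removed (median -0.13), with Usf1 higher by 2.57, Npas4 by 2.0 and Camk2a lower, at -2.11. Of the repeat modifiers 4 were higher and 7 lower (median -0.76), or 6 and 6 with the trend removed (median -0.42), with Lig1, a DNA ligase, higher by 1.63, Fan1, a nuclease, lower, at -2.39 and Med15 at -2.10.

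Cell type markers stood beside these values as follows. Cortical excitatory markers summed to 19403 to 21829 in HD-WNT5B and 11634 to 11758 in HD-Control, but 2 of 10 were higher and 3 lower, and Emx1 was at 0 in all 3 HD-WNT5B libraries. Striatal markers summed to 664402 to 689862 in HD-WNT5B and 605491 to 611460 in HD-Control, with 4 of 14 higher and 6 lower. Foxp1 alone stood at a mean of 214709 in HD-WNT5B and 25472 in HD-Control. Rgs9 stood at a mean of 103750 in HD-WNT5B and 29090 in HD-Control. Each of these differences is larger than that between the group means of the sums, so the higher striatal sum rests on these genes. Microglia markers summed to 47018 to 52831 in HD-WNT5B and 13564 to 13661 in HD-Control, with 7 of 10 higher and none lower (median log2 difference 1.14, or 0.56 with the length and GC trend removed). Astrocyte markers, the cells in which the GFAP promoter is active, summed to 200487 to 215327 in HD-WNT5B and 211579 to 212975 in HD-Control, with 4 of 10 higher and 4 lower. Pan-neuronal markers summed to 324410 to 341257 in HD-WNT5B and 306614 to 307034 in HD-Control, with 6 of 10 higher and 4 lower. The remaining lists stood as follows, and not all of them moved further than the microglia list. Choroid plexus and ependyma markers summed to 14737 to 17524 in HD-WNT5B and 1923 to 1968 in HD-Control, with 6 of 8 higher and 2 lower (median 1.22, or 0.11 with the trend removed). Thalamic and hypothalamic neuron markers summed to 4327 to 5490.2 in HD-WNT5B and 1779 to 1805 in HD-Control, with 6 of 9 tested higher and 1 lower (median 2.53, or 1.3 with the trend removed). Endothelial and mural markers summed to 50404 to 59745 in HD-WNT5B and 18377 to 18403 in HD-Control, with 7 of 10 higher and 3 lower. Oligodendrocyte markers summed to 763313 to 809690 in HD-WNT5B and 341348 to 343675 in HD-Control, with 6 of 10 higher and 4 lower, and those of their precursors to 21129 to 24178 in HD-WNT5B and 20319 to 20653 in HD-Control, with 5 of 8 higher and 2 lower. The part of these markers in the member differences was not tested.

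HD-WNT5B against WT-Control set the treated model beside wild type. It called 8 of the 9 genes (1 higher, 7 lower), against 77.9% of all genes tested (35.9% higher, 42.1% lower). With a weight per group no call of a member changed. Bdnf was lower by a log2 difference of -2.14 (SE 0.23, adjusted p = 3.3e-05, or 0.00057 with a weight per group). With the length and GC trend removed it was -1.38. All 3 HD-WNT5B libraries were below all 3 WT-Control libraries for Bdnf. Zdhhc17 was lower, at -2.43, or -1.55 with the trend removed. Rest was lower, at -2.35, or -1.50 with the trend removed, and Hip1 at -1.76, or -1.18. Rasd2 was lower, at -0.64, or -0.99 with the trend removed, and Hip1r was higher by 0.88, or by 1.12. Ntrk2 was lower, at -0.86, and Htt at -0.45, but with the length and GC trend removed Htt was higher by 0.27 (adjusted p = 0.0011) and Ntrk2 differed by 0.01 (adjusted p = 0.754). Hap1 differed by 0.02 (interval -0.17 to 0.21, adjusted p = 0.81), with overlapping groups, and its sign turned under 3 of the scalings and with the trend removed (-0.32, adjusted p = 0.0068). Without HD-WNT5B replicate 2 it was 0.13 with an adjusted p of 0.0035. Rest per length was 0.356 to 1.15 times Bdnf in HD-WNT5B and 0.754 to 0.818 times Bdnf in WT-Control, with the HD-WNT5B libraries on both sides.

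Per length, the HD-WNT5B order began with Rasd2 (13221 ± 500.4, SD, n = 3) and Ntrk2 (2462 ± 45.5). Hap1 (1934 ± 248) and Hip1r (1932 ± 215) followed and overlapped, then Htt (699 ± 49.5), Zdhhc17 (298 ± 45.6) and Hip1 (196 ± 11.6). Bdnf (21.5 ± 6.46) and Rest (14.8 ± 5.31) were lowest and overlapped.

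The genes most like Htt, Bdnf and Ntrk2 over all 9 libraries were found by the root mean square difference of centred log2 values, over 13080 genes whose mean was 100 or more. For Htt these were Stxbp5 (0.032), Fam49a (0.036) and Spon1 (0.04), against a median of 0.643 over genes. For Bdnf the nearest were less close, with P2ry12, a receptor of microglia, at 0.17, Trim17 at 0.214 and Apln at 0.286, against a median of 1.225. P2ry12 had 408, 607 and 510.4 normalized reads in HD-WNT5B, 407, 359.8 and 401 in HD-Control and 2414, 2365 and 2513 in WT-Control. For Ntrk2 they were Picalm, a clathrin adaptor, at 0.027, Ildr2 at 0.049 and Fbxo42 at 0.05, against a median of 0.69.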

How the data were processed

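The signal values deposited by the authors are, judged by their steps, estimated reads of protein-coding genes divided by 1 factor per library (whole reads within 0.01 for 97.4 to 99.0% of low values), not divided by length. Per the submitters' processing notes, alignment was by STAR, with build mm10. Which program and annotation made the counts, and in which versions, is not given in the sources used. GENCODE M21 matched all 21853 identifiers and gave symbols, positions and lengths. Genes reaching 10 in 3 or more libraries were tested with limma 3.58.1 in R 4.3.3 on log2(value + 3), with a trend and with the spread shared over 9 libraries. Fold changes on this scale understate those of low genes. Adjusted p-values are Benjamini-Hochberg over all genes tested. The count tests planned were not used, because the values are not counts. The procedure was also run on simulated libraries with a scatter set per group. These held no length trend and no loss of low-read genes, so they cannot show whether calls hold under those features of HD-WNT5B. The members and lists were chosen with earlier results of these data known, and lists get no test. Named genes are the members, up to 4 genes per list with the smallest p in either of the first 2 comparisons, Wnt5b, Prnp and the 3 genes most like Htt, Bdnf and Ntrk2; some genes so picked are not reported here. The labels give no batch. Alternatives covered scaling, filter, constant, spread, replicate block, single libraries left out and, added after seeing the data, precision weights on recovered reads and removal of a spline trend on length and GC.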

Additional observations from a re-analysis of the deposited data

How the results depend on the processing

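Of 594 member differences under alternatives, 546 kept direction and side of the threshold, 33 gained a call, 4 lost one and 11 reversed. The reversals were Htt in HD-WNT5B minus HD-Control (0.081) and minus WT-Control (0.271) and Ntrk2 in HD-WNT5B minus WT-Control (0.013) with the length and GC trend removed. Bdnf in HD-WNT5B minus HD-Control reversed with equal totals (-0.334) and without HD-WNT5B replicate 2 (-0.026, up to 0.323 without other libraries). Hap1 in HD-WNT5B minus WT-Control reversed with equal totals (-0.558), upper-quartile (-0.045) and trimmed-mean (-0.009) factors, without HD-WNT5B replicate 1 (-0.029) or 3 (-0.037, up to 0.134 without replicate 2) and with the trend removed (-0.317). For HD-Control minus WT-Control the called members were 9 with a weight per group or only the 2 groups compared, 8 with precision weights and 3 to 8 with 1 library left out (8 without HD-WNT5B replicate 2), against 4. All genes called were 12779 and 12908 under the first and the second of these alternatives, against 6957; those fits leave the HD-WNT5B scatter out of the spread. The cause of the other changes was not tested. Replicate numbers did not pair libraries (correlations of deviations -0.078 to 0.021), and a replicate block called 4, 7 and 8 members and 6402, 11782 and 11891 genes in the 3 comparisons. The count tests planned on recovered reads were not run, because the smallest values did not all give whole reads. Low read numbers limit Bdnf and Rest in HD-WNT5B.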
